A study of Homo sapiens with 6 samples.

Results

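The 10 genes described here encode secreted factors that act on blood vessels and on the contractile cells around them: VEGFA, VEGFB, VEGFC, PGF, ANGPTL4, FGF2, PDGFA and PDGFB, which are angiogenic, and ADM and EDN1, which are vasoactive. They were chosen by name among the 35035 genes of an expression table of human HK-2 cells. The choice drew on their known roles and was made with earlier results of these data known. All 10 were in the table, and all 10 were among the 19350 genes with enough reads to be tested. The table held 6 RNA sequencing libraries, with 3 in each group. HK-2 is an immortalised line of proximal tubular epithelial cells from human kidney. The controls, whose genotype is labelled WT, had received an empty vector plasmid. The other group had received a plasmid for overexpression of circAASS, a circular RNA named after the gene AASS, and its genotype is labelled circAASS-overexpressed. Both groups went through 24 h at 1% oxygen and then 12 h of reoxygenation, so every value below is from cells after hypoxia, and no normoxic library was analysed here. The promoter on the plasmid is not given in the sources used here. Nothing in the labels says that the 3 repeats of a group were separate cultures, and a p-value here reflects only how far these libraries scatter, which may be technical.

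Tubule cells lie against the peritubular capillaries and signal to them with secreted proteins. VEGFA is the main growth factor for endothelial cells and is a known target of the hypoxia-inducible factors, which are stable when oxygen is low. ADM, EDN1, ANGPTL4 and PDGFB are also known targets of these factors in various cells. PDGF proteins act on pericytes and fibroblasts, which carry the PDGF receptors.

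The libraries held 45148425 to 58179563 reads. AASS, the linear host gene, had 1.20, 1.38 and 1.10 RPKM (reads divided by gene length and by library size) with empty vector and 0.836, 0.977 and 0.827 RPKM with circAASS. All 3 circAASS libraries were lower, by a log2 fold change of -0.37 (SE 0.13), which did not pass limma's test at an adjusted p of 0.0677. It passed with library size as the only scaling and with limma-voom on reads recovered from the RPKM. This value does not check the labels, because a circular RNA is not told apart from its host gene here. Of 11 markers of the proximal tubule, 6 were under 0.1 RPKM in every library, namely CUBN, LRP2, SLC34A1, AQP1, ANPEP and HNF4A, and of the 6 epithelial markers CDH1 was also under 0.1 RPKM. The summed epithelial markers were at 341 to 353 RPKM with empty vector and 402 to 451 RPKM with circAASS, so these groups did not overlap. Of these markers KRT8, KRT18 and CLDN1 were called higher and EPCAM lower, and KRT8 had the highest mean, 138 RPKM. The defining endothelial markers PECAM1, CDH5, VWF, TEK and TIE1 were under 0.1 RPKM in every library, as were 8 of the 12 endothelial markers in all. The summed endothelial markers were at 4.29 to 4.86 RPKM with empty vector and 3.78 to 4.28 RPKM with circAASS, just short of overlap in the deposited RPKM. Most of this sum was EGFL7, with a mean of 3.67 RPKM over the 6 libraries. The 1 endothelial marker with a call of its own, ROBO4, was higher and none was lower. The fibroblast or pericyte markers summed to 4.28 to 5.06 and 4.70 to 4.94 RPKM, with 4 of 9 under 0.1 RPKM throughout, and the leukocyte markers to 1.06 to 1.39 and 0.860 to 1.16 RPKM, with 4 of 7 under 0.1 RPKM. No marker was at 0 in all libraries. Mitochondrial genes took 8.86% to 9.03% of reads with empty vector and 9.09% to 10.1% with circAASS, and RN7SK, a small nuclear RNA without a poly(A) tail, rose from 34.1 to 44.7 RPKM to 55.6 to 190 RPKM (limma adjusted p = 0.0181). The part of these differences in the results below was not tested.

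The promoters of 8 of the 10 genes were found in RefSeq's table for GRCh38.p14, and VEGFA and PDGFB were not matched. Windows ran from 250 bases before to 50 bases after RefSeq's start site, which can differ from the gene start given below. For ANGPTL4 this site is 8364155, inside the gene, whose span begins at 8363289. PDGFA had 4 entries in RefSeq's table, EDN1 had 3 and PGF had 2, and the motifs below are those of the entry used. They were searched on both strands for ACGTG and GCGTG, the core letters of hypoxia response elements, for TGANTCA (AP-1), TGACGTCA (cAMP response), GGGCGG (SP1) and the TATA motif TATAAA. No motif of the set contains another. The sequences of 3 genes that rose with circAASS (EDN1, VEGFC and FGF2) and of ANGPTL4, which did not pass the test, are given 5′ to 3′ on the strand of the gene, up to the first base of an annotated exon. Capitals mark the hypoxia core, which reads CACGT or CACGC when it lies on the other strand, and TATAAA.
EDN1, chr6:12290111-12290360, plus strand: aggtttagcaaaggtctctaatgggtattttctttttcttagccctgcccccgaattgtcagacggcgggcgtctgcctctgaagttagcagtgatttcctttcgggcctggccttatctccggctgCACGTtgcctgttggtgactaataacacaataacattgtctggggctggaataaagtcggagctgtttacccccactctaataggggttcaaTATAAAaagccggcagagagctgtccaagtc
VEGFC, chr4:176792923-176793172, minus strand: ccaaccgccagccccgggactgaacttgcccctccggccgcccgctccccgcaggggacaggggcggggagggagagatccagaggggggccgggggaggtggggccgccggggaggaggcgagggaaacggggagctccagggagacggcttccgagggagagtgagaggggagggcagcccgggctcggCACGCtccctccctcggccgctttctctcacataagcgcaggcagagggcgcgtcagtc
FGF2, chr4:122826581-122826707, plus strand: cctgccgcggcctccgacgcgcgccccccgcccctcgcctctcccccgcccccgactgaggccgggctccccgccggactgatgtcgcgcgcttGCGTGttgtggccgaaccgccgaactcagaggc
ANGPTL4, chr19:8363905-8364150, plus strand: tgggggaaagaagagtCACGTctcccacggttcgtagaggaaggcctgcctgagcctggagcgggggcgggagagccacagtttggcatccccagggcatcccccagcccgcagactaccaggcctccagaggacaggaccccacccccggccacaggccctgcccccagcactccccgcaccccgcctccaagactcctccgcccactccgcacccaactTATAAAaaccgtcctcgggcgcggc

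All 8 windows held ACGTG or GCGTG, as did 48.4% of the 35116 promoters in the table. ACGTG was in EDN1 and ANGPTL4, that is in 2 of 8 windows against 21.4% of all promoters, and GCGTG was in the other 6 (VEGFB, VEGFC, PGF, ADM, FGF2 and PDGFA) against 36.5%. Measured from RefSeq's start site, the core began at -123 in EDN1, -59 in VEGFC, -156 in FGF2 and -234 in ANGPTL4. TATAAA was in ADM, EDN1 and ANGPTL4, at -27, -31 and -29, and in 11.5% of all promoters. GGGCGG was in 7 of 8 windows, all but that of EDN1, against 45.0% of all promoters. Neither TGANTCA nor TGACGTCA was in any of the 8, against 7.71% and 1.85% of all promoters. A match is a description of the letters: the hypoxia core was present in genes that rose with circAASS and in genes that did not pass the test.

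With circAASS, 5 of the 10 factors rose (VEGFA, FGF2, EDN1, ADM and VEGFC), 1 fell (PDGFB) and 4 did not pass the test (PGF, VEGFB, ANGPTL4 and PDGFA). Among all 19350 tested genes 16.0% were higher and 16.3% lower, 32.3% in all, at a limma adjusted p under 0.05, Benjamini-Hochberg adjusted over all of them. With library size as the only scaling, the split over all genes was 2159 higher and 4023 lower against 3091 and 3152 with trimmed-mean scaling, and the split of the 10 factors was the same under both. In the deposited RPKM, before trimmed-mean scaling, the groups did not overlap for 8 of the 10, against 47.5% of all tested genes. RPKM and their means are printed as deposited, while fold changes come from scaled log2(RPKM + 0.1). For VEGFC this gave a fold of 1.34, against 1.28 from its printed means. The median log2 fold change was 0.45 over the 10 factors and -0.01 over all tested genes. Since the 10 were chosen with earlier results known, these contrasts with all tested genes are description and not an independent test. In bulk RNA a change in the share of cells that make a factor and a change in the RNA per cell cannot be told apart.

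**Figure D1:**
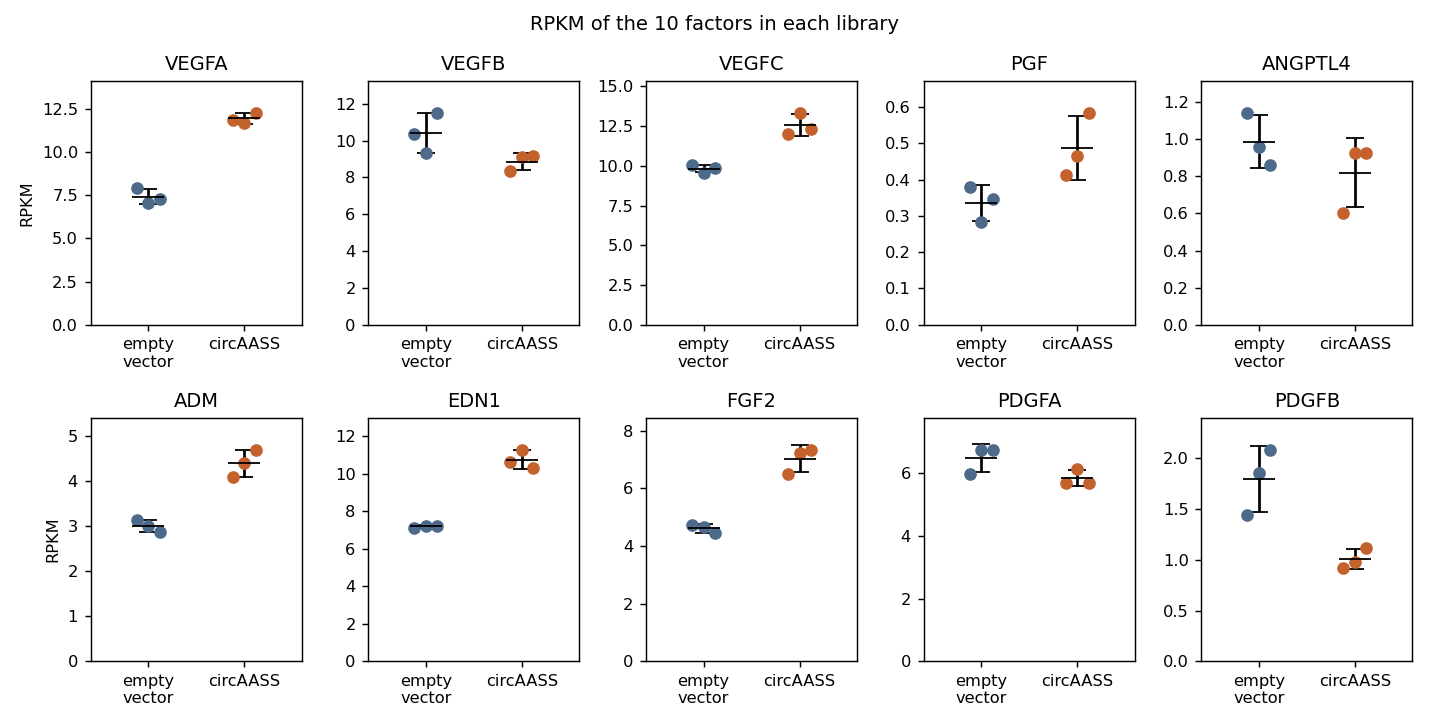
RPKM of each of the 10 factors (vertical axes, each starting at 0) in the 3 empty vector and 3 circAASS libraries; points are libraries, the long line is the mean and the bars are the SD. Values are deposited RPKM, before scaling. VEGFA, VEGFC, ADM, EDN1, FGF2 and PGF sit higher in all 3 circAASS libraries, PDGFB and VEGFB sit lower in all 3, and ANGPTL4 and PDGFA overlap.

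VEGFA (ENSG00000112715, chr6:43770184-43786487, plus strand of GRCh38), the main mitogen and permeability factor of endothelium, had 7.90, 7.05 and 7.28 RPKM with empty vector and 11.9, 11.7 and 12.3 RPKM with circAASS, from 5145 to 9816 reads a library. The lowest circAASS library was above the highest empty vector library, and the repeats of each group lay close together. VEGFA rose from 7.41 ± 0.439 to 11.9 ± 0.296 RPKM (SD, n = 3 each), a log2 fold change of 0.76 (SE 0.06, 95% confidence interval 0.61 to 0.90, limma adjusted p = 0.000338). This fold change was above that of 97.1% of tested genes and was the largest rise among the 10 factors. It stood at rank 156 of all tested genes by p.

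VEGFB (chr11:64234538-64238793, plus strand), a ligand of VEGFR1 (FLT1) with little mitogenic activity, had 10.4, 9.33 and 11.5 RPKM with empty vector and 8.34, 9.10 and 9.15 RPKM with circAASS. In the deposited RPKM the groups did not overlap, but the lowest empty vector library and the highest circAASS library were close. The trimmed-mean scaling used for the fold change lowers the controls relative to circAASS, and with it this gap closes. The log2 fold change of VEGFB was -0.15 (SE 0.08, 95% confidence interval -0.34 to 0.03), which did not pass (limma adjusted p = 0.181). PGF (chr14:74941834-74955784, minus strand), placental growth factor, which binds the same receptor, had 0.379, 0.283 and 0.345 RPKM with empty vector and 0.413, 0.464 and 0.584 RPKM with circAASS. All 3 circAASS libraries were above all 3 controls, on only 86 to 165 reads a library. The log2 fold change of PGF was 0.48 (SE 0.17, 95% confidence interval 0.08 to 0.89) with a limma adjusted p of 0.0680. Its log2 fold change was 0.17 to 0.61 over the alternatives, the smallest with a pseudocount of 1 RPKM. PGF passed under 2 of 14 alternatives, limma-voom on recovered reads and limma without trend and robust estimation.

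VEGFC (chr4:176683538-176792727, minus strand) is the growth factor of lymphatic endothelium and binds VEGFR3 (FLT4). It had 10.0, 9.57 and 9.85 RPKM with empty vector and 12.0, 13.3 and 12.3 RPKM with circAASS. The groups did not overlap, and the controls lay close together. VEGFC rose from 9.83 ± 0.239 to 12.6 ± 0.683 RPKM (SD, n = 3 each), a log2 fold change of 0.42 (SE 0.06, 95% confidence interval 0.29 to 0.56, limma adjusted p = 0.00213). Of the 5 factors that rose, VEGFC had the smallest fold change.

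FGF2 (chr4:122826708-122898236, plus strand), basic fibroblast growth factor, is a mitogen for endothelial cells, fibroblasts and epithelium that leaves cells without a signal peptide. FGF2 had 4.74, 4.67 and 4.45 RPKM in the controls and 6.49, 7.24 and 7.35 RPKM with circAASS. Every circAASS library was above every control. FGF2 rose from 4.62 ± 0.148 to 7.03 ± 0.466 RPKM (SD, n = 3 each), a log2 fold change of 0.66 (SE 0.07, 95% confidence interval 0.51 to 0.82, limma adjusted p = 0.000669). NUDT6, which lies antisense, covers 11.9% of the exon bases of FGF2, and whether the counting used strand is not given in the sources used here. NUDT6 had 1.08 ± 0.0495 and 1.35 ± 0.106 RPKM (SD, n = 3 each; log2 fold change 0.36, limma adjusted p = 0.0319), a call that was lost when any 1 of the 6 libraries was left out (highest adjusted p = 0.10).

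PDGFA (chr7:497258-520296, minus strand), a mitogen for mesenchymal cells, had 5.96, 6.74 and 6.75 RPKM with empty vector and 5.69, 6.14 and 5.69 RPKM with circAASS, and the groups overlapped. The log2 fold change of PDGFA was -0.08 (SE 0.07, 95% confidence interval -0.24 to 0.09, limma adjusted p = 0.448). PDGFB (chr22:39223359-39244751, minus strand), the chain that endothelium uses to recruit pericytes, had 1.44, 1.85 and 2.08 RPKM with empty vector and 0.920, 0.978 and 1.11 RPKM with circAASS. All 3 circAASS libraries lay under the lowest control, and the controls were more spread than the circAASS libraries. PDGFB fell from 1.79 ± 0.324 to 1.00 ± 0.0979 RPKM (SD, n = 3 each), a log2 fold change of -0.70 (SE 0.14, 95% confidence interval -1.03 to -0.37, limma adjusted p = 0.00937). It passed under all 15 alternatives, with a log2 fold change of -0.83 to -0.43 and a highest adjusted p of 0.0403, reached without empty vector replicate 2.

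Both vasoactive genes rose, one for a constrictor and the other for a dilator. EDN1 (chr6:12290363-12297194, plus strand) encodes endothelin-1, a strong vasoconstrictor. It had 7.13, 7.24 and 7.24 RPKM with empty vector and 10.6, 11.3 and 10.3 RPKM with circAASS. The 3 controls were almost equal and all circAASS libraries were higher. EDN1 rose from 7.20 ± 0.0658 to 10.7 ± 0.504 RPKM (SD, n = 3 each), a log2 fold change of 0.64 (SE 0.06, 95% confidence interval 0.51 to 0.78, limma adjusted p = 0.000502). ADM (chr11:10304680-10307397, plus strand) encodes adrenomedullin, a vasodilator. ADM had 3.13, 3.00 and 2.86 RPKM in the controls and 4.08, 4.39 and 4.70 RPKM with circAASS. ADM rose from 3.00 ± 0.134 to 4.39 ± 0.308 RPKM (SD, n = 3 each), without overlap, by a log2 fold change of 0.61 (SE 0.07, 95% confidence interval 0.43 to 0.78, limma adjusted p = 0.00138).

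ANGPTL4 (chr19:8363289-8374373, plus strand), an inhibitor of lipoprotein lipase that also acts on endothelium, is a known target of the hypoxia-inducible factors and of the peroxisome proliferator-activated receptors (PPARs). It had 1.14, 0.956 and 0.860 RPKM with empty vector and 0.605, 0.928 and 0.927 RPKM with circAASS, on 72 to 134 reads a library. Only circAASS replicate 1 stood apart, and the other circAASS libraries lay inside the range of the controls. The log2 fold change of ANGPTL4 was -0.19 (SE 0.18, 95% confidence interval -0.62 to 0.24, limma adjusted p = 0.469). Without circAASS replicate 1 the log2 fold change was -0.02 (adjusted p = 0.948).

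**Figure D2:**
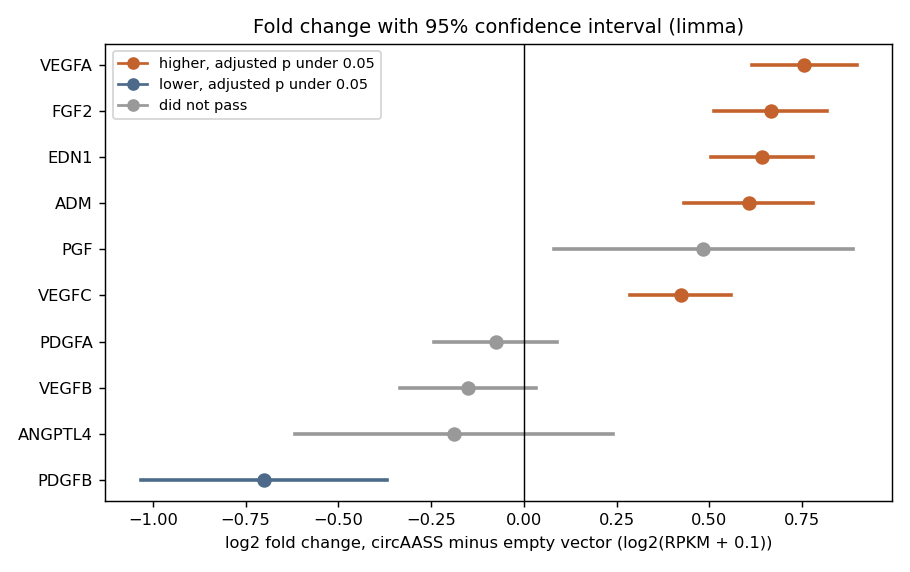
Log2 fold change of circAASS over empty vector (horizontal axis, on the log2(RPKM + 0.1) scale) for each factor, with 95% confidence intervals from limma; colour shows whether the adjusted p was under 0.05. VEGFA, FGF2, EDN1, ADM and VEGFC lie to the right of 0, PDGFB lies to the left, and the intervals of PDGFA, VEGFB and ANGPTL4 include 0.

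Since each library gives both genes of a pair, ratios within a library do not depend on how libraries are scaled, and 4 of them were compared with an exact two-sided permutation test, which with 3 against 3 cannot go below 0.1. VEGFA over VEGFB was 0.763, 0.756 and 0.632 with empty vector and 1.42, 1.28 and 1.34 with circAASS, and the groups did not overlap (log2 difference 0.92, exact p = 0.1, Benjamini-Hochberg over the 4 ratios 0.2). The level of a ratio depends on the gene lengths used, and its difference between groups does not. PDGFA over PDGFB was 4.13, 3.64 and 3.24 with empty vector and 6.18, 6.27 and 5.13 with circAASS, again without overlap (log2 difference 0.67, exact p = 0.1, adjusted 0.2). EDN1 over ADM was 2.28, 2.41 and 2.53 with empty vector and 2.60, 2.57 and 2.19 with circAASS. The groups overlapped for EDN1 over ADM (log2 difference 0.03, exact p = 0.8). VEGFA over PGF overlapped too, at 20.8, 24.9 and 21.1 against 28.8, 25.2 and 21.0 (log2 difference 0.16, exact p = 0.3, adjusted 0.4).

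In RPKM, which are per length, the order of the 10 factors with empty vector was VEGFB, VEGFC, VEGFA, EDN1, PDGFA, FGF2, ADM, PDGFB, ANGPTL4 and PGF. Neighbours whose ranges overlapped were VEGFB with VEGFC and VEGFA with EDN1. With circAASS the order was VEGFC, VEGFA, EDN1, VEGFB, FGF2, PDGFA, ADM, PDGFB, ANGPTL4 and PGF, and VEGFC with VEGFA and PDGFB with ANGPTL4 overlapped. VEGFB thus moved from rank 1 to rank 4. The level of VEGFA depends on the length it is divided by: all its annotated exons together span 14431 bases, while its longest protein-coding transcript has 3535. Per longest transcript VEGFA had a mean of 30.2 RPKM with empty vector and 48.8 RPKM with circAASS and stood at rank 1 in both groups. These values still take the reads of all exons, so they can exceed the true level of that transcript. This length, chosen after seeing the data, put 5 of the 10 factors at another rank with empty vector and 7 with circAASS, and leaves every fold change between groups as it was.

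Genes whose values across the 6 libraries came nearest to those of VEGFA were sought by the root mean square difference in log2(RPKM + 0.1), each gene centred on its mean. They were AC093673.5 (0.0177), GRK3 (0.0345) and BCAT1 (0.0352). Nearest to PDGFB were CHDH (0.0580), RP4-569M23.5 (0.0703) and CEMP1 (0.0705). CHDH shares 18% and CEMP1 100% of exon bases with an antisense gene, so their reads are uncertain. Likeness over 6 libraries in 2 groups is mostly likeness in the group difference.

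The genes around the 10 factors were taken from 8 lists, with 163 tested genes outside the 10, of which 41 were higher and 36 lower. The counts of each list are to be read beside the 16.0% higher and 16.3% lower of all tested genes, 32.3% in all. The call was lost under at least 1 alternative for 24 of these 77 genes and no direction reversed. Of 23 receptors and co-receptors, 21 were in the table and 13 were tested: 2 rose, 8 fell and 3 did not pass, and their median log2 fold change was -0.43. FLT4, the receptor of VEGFC, had 0.435, 0.560 and 0.452 RPKM with empty vector and 0.0966, 0.0893 and 0.0787 RPKM with circAASS. All 3 circAASS libraries were under 0.1 RPKM. FLT4 fell by a log2 fold change of -1.58 (SE 0.16, limma adjusted p = 0.000733), while its ligand VEGFC rose. As for other low genes, the size depends on the pseudocount, and the log2 fold change of FLT4 was -2.36 to -0.43 over the alternatives, the smallest with a pseudocount of 1 RPKM. FGFR3, an FGF receptor, fell from 3.23 ± 0.366 to 1.33 ± 0.0481 RPKM (log2 fold change -1.14, limma adjusted p = 0.000465), and FGFRL1, a receptor without a kinase domain, from 21.1 ± 1.24 to 12.3 ± 0.522 RPKM (log2 fold change -0.70, limma adjusted p = 0.000670). SDC4, a heparan sulfate proteoglycan that binds FGF2, was chosen after its values were seen. It fell from 97.9 ± 7.28 to 64.0 ± 4.39 RPKM (log2 fold change -0.54, limma adjusted p = 0.00196). The 2 that rose were NRP2, a co-receptor of VEGFC, from 12.3 to 15.5 RPKM (log2 fold change 0.40, limma adjusted p = 0.00193), and SDC2, from 36.0 to 41.6 RPKM (log2 fold change 0.28, limma adjusted p = 0.00372). Below the filter were 8 genes that had at most 0.359 RPKM in any library, namely FLT1 and KDR (receptors of VEGFA), EDNRA and EDNRB (of EDN1), CALCRL, RAMP1 and RAMP2 (of ADM) and PDGFRA.

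Of 18 tested genes that process, store or clear the 10 factors, 5 rose and 4 fell, with a median of -0.09. With library size as the only scaling the counts were 3 and 5. PLAT, tissue plasminogen activator, rose from 3.76 ± 0.0961 to 7.65 ± 0.456 RPKM (log2 fold change 1.07, limma adjusted p = 0.000122). CCBE1, needed for maturation of VEGFC, rose from 7.73 to 10.0 RPKM (log2 fold change 0.44, limma adjusted p = 0.00279), and FURIN, a protease that cleaves the precursors of VEGFC, PDGF and endothelin, rose from 2.74 to 3.45 RPKM (limma adjusted p = 0.0115). ECE1, which releases active endothelin from its precursor, rose from 12.8 to 14.6 RPKM (limma adjusted p = 0.010, and 0.0522 with library size alone). FGFBP3, a carrier of FGF2, fell from 0.738 to 0.146 RPKM (log2 fold change -1.71, and -2.23 to -0.58 over the alternatives, limma adjusted p = 0.00142), HSPG2, the basement membrane proteoglycan perlecan, from 4.73 to 2.60 RPKM (log2 fold change -0.78, limma adjusted p = 0.00141), and ITGB1, an integrin chain, from 295 to 200 RPKM (log2 fold change -0.49, limma adjusted p = 0.000533). PAM, the enzyme that amidates adrenomedullin, was at 28.9 and 23.2 RPKM (limma adjusted p = 0.0141), a call lost without empty vector replicate 2 or 3 (highest adjusted p = 0.0565).

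Among 16 tested other angiogenic ligands, 6 rose and 1 fell, with a median of 0.20. The call of KITLG, 1 of the 6, was lost under 9 of 15 alternatives. In 5 of these a library was left out (highest adjusted p = 0.0874). FGF1, the acidic relative of FGF2, rose from 0.389 ± 0.0737 to 1.10 ± 0.112 RPKM (log2 fold change 1.36, and 0.62 with a pseudocount of 1 RPKM, limma adjusted p = 0.00117). EFNB2, the ephrin of arterial endothelium, rose from 7.70 to 11.7 RPKM (log2 fold change 0.66, limma adjusted p = 0.000405), with 26.2% of its exon bases covered by an antisense gene, so its reads are uncertain. CYR61 and CXCL8 rose from 168 to 225 RPKM and from 222 to 274 RPKM (log2 fold changes 0.49 and 0.38, limma adjusted p = 0.00267 and 0.00146). APLN, the vasodilator peptide apelin, fell from 0.252 to 0.101 RPKM (limma adjusted p = 0.00829, and 0.0694 with no filter on low values).

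Of 12 tested inhibitors of angiogenesis, 1 rose and 5 fell, with a median of -0.30. The 1 that rose, ADAMTS1, a protease that binds VEGFA, went from 15.1 ± 1.06 to 37.0 ± 1.10 RPKM (log2 fold change 1.36, limma adjusted p = 7.98e-05). THBS2, thrombospondin 2, fell from 14.8 to 8.01 RPKM (log2 fold change -0.80, limma adjusted p = 0.000705), and COL18A1, whose fragment is endostatin, from 28.2 to 17.6 RPKM (log2 fold change -0.61, limma adjusted p = 0.000888). VASH1, vasohibin 1, was at 5.47 and 3.21 RPKM (log2 fold change -0.68, limma adjusted p = 0.000776), with 24.2% of its exon bases shared with other genes. VASH2 and ADGRB1 were the other 2, at 0.271 and 0.111 RPKM and at 0.0800 and 0.0184 RPKM, and both calls were lost without any of empty vector replicates 2 and 3 and circAASS replicates 1, 2 and 3 (highest adjusted p over these = 0.105 for VASH2 and 0.113 for ADGRB1).

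Of 23 tested genes of other vasoactive systems, 5 rose and 3 fell (3 and 5 with library size alone), close to the 32.3% called among all tested genes, with a median of 0.05. DDAH1, which breaks down an inhibitor of nitric oxide synthase, rose from 4.55 to 6.67 RPKM (log2 fold change 0.61, limma adjusted p = 0.00189), and PTGS1, a cyclooxygenase, from 0.876 to 1.29 RPKM (log2 fold change 0.58, and 0.32 to 0.62 over the alternatives, limma adjusted p = 0.00819). ARG2, a mitochondrial arginase, was also higher (log2 fold change 0.64, limma adjusted p = 0.00103), with 37.4% of its exon bases antisense to another gene. GUCY1B3, a chain of the nitric oxide receptor, fell from 8.80 to 6.95 RPKM (log2 fold change -0.26, limma adjusted p = 0.00915). The other 4 calls were lost without at least 1 library: NPPB and PTGES, which were higher, and BDKRB1 and UTS2, which were lower (highest adjusted p without 1 library = 0.127, 0.0961, 0.0785 and 0.127). NOS1, NOS2 and NOS3, the nitric oxide synthases, were below the filter.

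Of 37 tested other targets of the hypoxia-inducible factors, 6 were higher and 11 lower (4 and 17 with library size alone), with a median of -0.12, while of the known targets among the 10 factors VEGFA, EDN1 and ADM rose, PDGFB fell and ANGPTL4 did not pass. BHLHE40, a transcriptional repressor, fell from 11.5 ± 0.378 to 5.52 ± 0.175 RPKM (log2 fold change -0.97, limma adjusted p = 0.000115), and VLDLR, a lipoprotein receptor, from 10.1 to 6.44 RPKM (log2 fold change -0.57, limma adjusted p = 0.000980). P4HA2, a collagen prolyl hydroxylase, rose from 29.5 to 38.5 RPKM (log2 fold change 0.45, limma adjusted p = 0.000733), and STC2, a secreted glycoprotein, from 23.5 to 37.4 RPKM (log2 fold change 0.74, limma adjusted p = 0.00116). NDRG1 and PDK1, chosen after their values were seen, fell from 3.39 to 1.65 RPKM and from 0.799 to 0.397 RPKM (limma adjusted p = 0.00186 and 0.00693).

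Of 29 tested genes that control transcription or mRNA stability of the 10 factors, 13 were higher and 2 lower (9 and 2 with library size alone), with a median of 0.25. HIF1A, the oxygen-regulated chain of the hypoxia-inducible factor, had 79.1, 71.3 and 78.2 RPKM with empty vector and 98.7, 119 and 116 RPKM with circAASS. The groups of HIF1A did not overlap, and it rose by a log2 fold change of 0.62 (SE 0.08, limma adjusted p = 0.00141). Its partner chain ARNT fell from 5.51, 5.57 and 5.73 RPKM to 4.29, 3.87 and 4.27 RPKM (log2 fold change -0.36, limma adjusted p = 0.00632), and SP1, which binds GC boxes, from 10.1 to 7.93 RPKM (limma adjusted p = 0.00930). GATA2, a factor known to act on the EDN1 promoter in endothelium, rose from 1.91 ± 0.183 to 3.94 ± 0.319 RPKM (log2 fold change 1.08, limma adjusted p = 0.000402). ATF4, of the stress response, rose from 101 to 136 RPKM (log2 fold change 0.50, limma adjusted p = 0.00111), and JUN, part of AP-1, from 56.5 to 71.2 RPKM (log2 fold change 0.41, limma adjusted p = 0.00196).

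**Figure D3:**
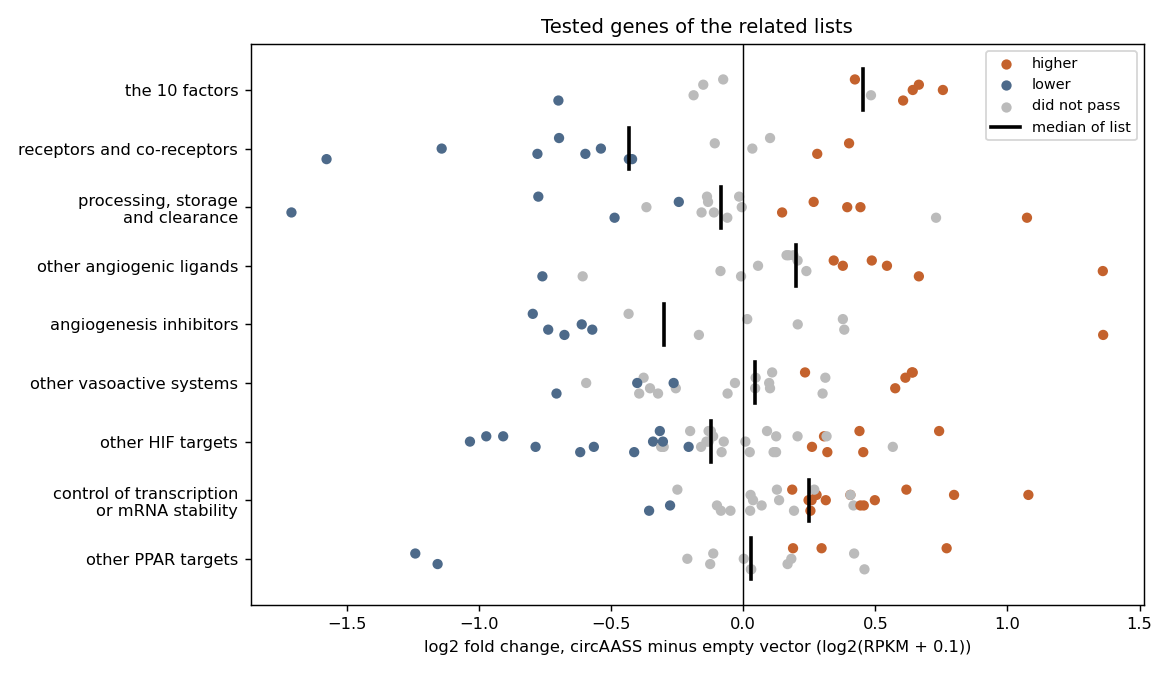
Log2 fold change of circAASS over empty vector (horizontal axis) for every tested gene of the 10 factors and of 8 related lists (rows); each point is a gene, coloured by limma's call, and the black bar is the median of the list. The median lies at 0.45 for the 10 factors, -0.43 for receptors and co-receptors, -0.30 for angiogenesis inhibitors and 0.25 for the factors that control transcription or mRNA stability.

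The calls of the 6 factors that passed were the same under all 15 alternatives of scaling, pseudocount, filter, model and library left out. The highest adjusted p over these was 0.00347 for VEGFA, 0.00460 for EDN1, 0.00539 for FGF2, 0.00896 for ADM, 0.0137 for VEGFC and 0.0403 for PDGFB. VEGFB, PDGFA and ANGPTL4 did not pass under any alternative that tested them.

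**Figure D4:**
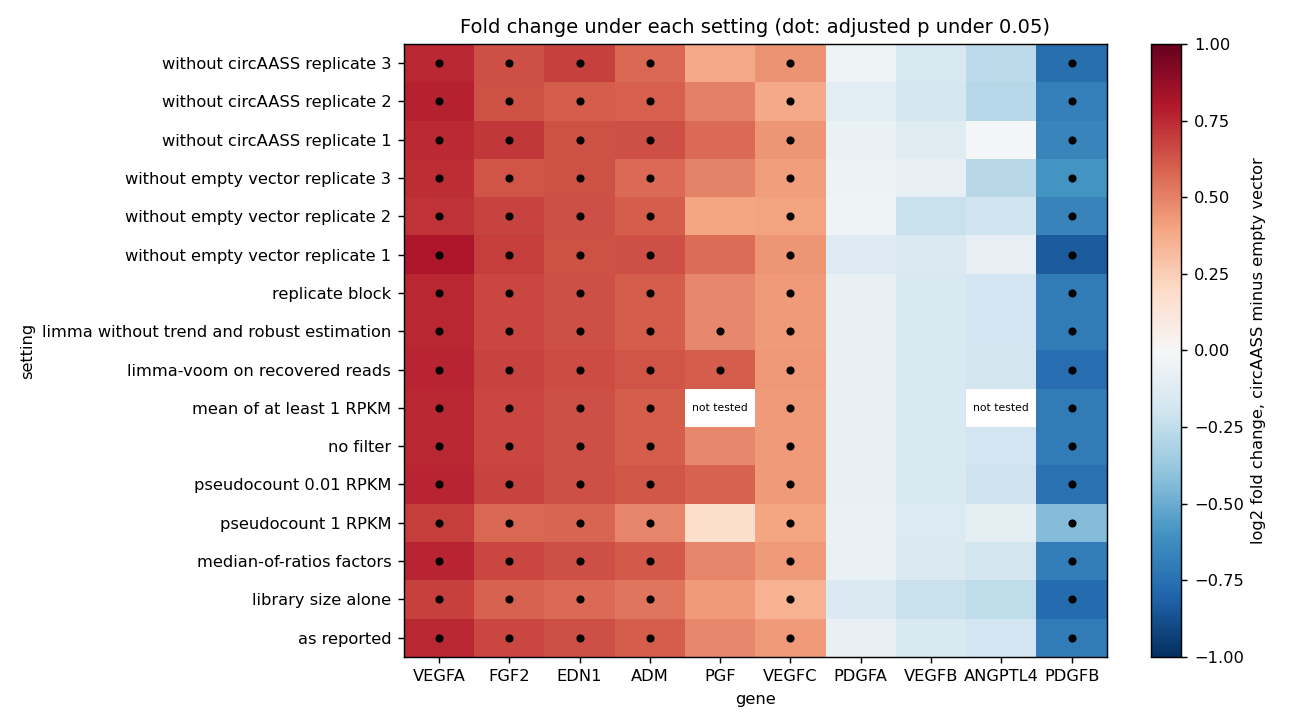
Log2 fold change of each factor (columns) under each processing alternative (rows), as colour from blue (lower with circAASS) to red (higher); a dot marks an adjusted p under 0.05. VEGFA, FGF2, EDN1, ADM, VEGFC and PDGFB have a dot in every row, and PGF has a dot in 2.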

How the data were processed

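Per the labels' protocols, RNA of HK-2 cells was made into stranded mRNA libraries and sequenced as read pairs. The authors deposited RPKM for 35035 genes, although the table is called counts. The submitters' processing notes name Trimmomatic 0.36, featureCounts, Subread 1.5.1, edgeR 3.12.1 and the build GRCh38. Not given in the sources used here: aligner, annotation and strand setting. The series' design text gives another time after hypoxia than the 12 h of reoxygenation in the labels, which is used here.

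Reads were recovered from RPKM with GENCODE 29 exon lengths. Of 24697 genes named once in it, 22385 (90.6%) were whole within 0.02 reads in all libraries. The other 12650 genes took the smallest length giving whole reads. The 10 factors had annotated lengths. Among recovered read numbers between 1 and 20, 78.6% were even: both mates of most pairs were counted, and counting error exceeds what the reads imply. Names turned into dates removed 28 genes.

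RPKM were divided by trimmed-mean factors of 0.958 to 1.036, and log2(RPKM + 0.1) was tested with limma 3.58.1 (R 4.3.3; trend and robust), two-sided, Benjamini-Hochberg adjusted over 19350 genes. These had 10 or more reads in 3 or more libraries, once scaled to the median depth, and 15 or more in total. The threshold was 0.05. Fold changes refer to log2(RPKM + 0.1), which shrinks those of low genes. Means ± SD are of the deposited RPKM. The code was tested on simulated data. Tables were handled in Python 3.11 with numpy 2.4.6, pandas 2.3.3 and scipy 1.17.1, and figures were drawn with matplotlib 3.10.9.

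The members, gene lists and tests were chosen with earlier results of these data known. The genes named were AASS, the 10 factors, the 4 smallest p in each related list, and the 3 nearest patterns to the factors with the smallest p in each direction. Others were named where a count was 5 or fewer, after their values were seen. Also named outside these rules, with their values known, were SDC4, KITLG, NDRG1, PDK1, PPARG, PPARA and PPARD. The result of 1 list member is not reported here. Alternatives covered scaling, pseudocount, filter, limma-voom on recovered reads, the variance model, the replicate number as a block, and each library left out. Positions are those of GENCODE 29 on GRCh38, counted from 1, and promoters are RefSeq's for GRCh38.p14.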

Additional observations from a re-analysis of the deposited data

How the results depend on the processing

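The 10 factors gave 6 calls (5 higher, 1 lower) under every alternative except 2: limma-voom on recovered reads and limma without trend and robust estimation gave 7, with PGF added. A mean of at least 1 RPKM left PGF and ANGPTL4 untested. Over all genes 6243 calls became 6182 with library size alone (2159 higher, 4023 lower), which moved the median log2 fold change of all genes from -0.01 to -0.08, and 4400 with no filter. With 1 library left out there were 4013 to 5526 calls, the lowest without empty vector replicate 2 and 4308 and 4740 without empty vector replicates 3 and 1. Calls of listed genes outside the 10 went from 77 to 60 to 70 without 1 library. No pairing by repeat number was seen: same-numbered libraries had residual correlations of -0.005, -0.024 and 0.023, and 1 of 6 libraries correlated best with its own number. With so few libraries this does not settle whether repeats were run in pairs. The replicate block gave 5428 calls (2730 higher, 2698 lower), 72 listed genes outside the 10 and the same 6 factors. Per longest protein-coding transcript, a length chosen after seeing the data, 5 factors with empty vector and 7 with circAASS took another rank. The low reads of PGF and ANGPTL4 limit what could be detected for them.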

Other observations

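ANGPTL4 is also a target of the PPARs, and 15 other known targets of these lipid sensors were tested. Of these, 3 were higher, 2 lower and 10 did not pass, with a median log2 fold change of 0.03 (1 higher and 3 lower with library size alone). Among all tested genes 32.3% were called, so the list is close to the background. TXNIP, a regulator of glucose uptake and redox state, fell from 10.0 ± 1.00 to 3.96 ± 0.214 RPKM (SD, n = 3 each; log2 fold change -1.24, limma adjusted p = 0.000168). CPT2, an enzyme of mitochondrial fatty acid import, fell from 0.662 to 0.228 RPKM (log2 fold change -1.16, and -1.44 to -0.41 over the alternatives, limma adjusted p = 0.00302). HADHA, UCP3 and ACSL3 were at 27.8 and 30.1, 0.464 and 0.828, and 5.66 and 6.64 RPKM. Their limma calls were lost without at least 1 library (highest adjusted p = 0.0627 for HADHA, without empty vector replicate 3, 0.0660 for UCP3 and 0.0796 for ACSL3). Of the receptors themselves, PPARG went from 1.87 ± 0.135 to 3.17 ± 0.470 RPKM (log2 fold change 0.80, limma adjusted p = 0.00268). PPARA was at 0.737 and 0.998 RPKM (limma adjusted p = 0.0472), a call lost under 8 of 14 alternatives, among them the omission of any of empty vector replicates 1, 2 and 3 and circAASS replicates 1 and 3 (highest adjusted p = 0.142). PPARD did not pass (log2 fold change 0.14, limma adjusted p = 0.387). ANGPTL4 itself did not pass, at 0.986 and 0.820 RPKM.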
